A study of Rattus norvegicus with 10 samples.

Results

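ASCRPR006399, ASCRPR000911, ASCRPR012715 and ASCRPR002102 are 4 circular RNAs (circRNAs) whose signal was lower in the submandibular gland of spontaneously hypertensive rats (SHR) than in that of Wistar Kyoto rats (WKY). They were selected on that difference: of 14145 circRNA probes on the array, 14099 were tested, and these 4 were lower in SHR with a Benjamini-Hochberg adjusted p under 0.05 in limma, which is 0.0284% of those tested. Since the strain difference itself chose them, its size and its p-values are given below as a description. Each of the 4 has 1 probe with 1 spot per array.

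The SHR group held 5 arrays (named SHR2-1, SHR2-3, SHR3-1, SHR3-3 and SHR3-4) and the WKY group, the controls, another 5 (WKY1-2, WKY1-3, WKY1-5, WKY4-1 and WKY4-2). All rats were male and 14 weeks old, and controls were matched for age and weight. SHR is an inbred strain that becomes hypertensive with age, and WKY is the normotensive strain bred from the same stock. The labels define the groups by strain and give no blood pressure, and they tie no array to a particular rat, so every p-value measures the spread between these arrays. RNA of all arrays had been treated with RNase R, which digests linear RNA, before it was amplified, labelled with Cy3 and hybridised.

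A circRNA forms when the splicing machinery joins the end of an exon of a host gene back to the start of the same or an earlier exon. The ring has no free ends, so it resists RNase R and many other nucleases and tends to be long-lived. Some circRNAs bind microRNAs or proteins, while for most no function is known. The submandibular gland secretes saliva and, in rodents, growth factors and kallikreins. The files used here give the 4 probes by identifier only, with no host gene, coordinates or sequence, so what each RNA contains was not analysed here.

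Negative control spots had median processed signals of 1.02 to 2.76 intensity units per array, and median signal over all circRNA probes was 65.4 to 163. The 5 WKY arrays and SHR2-1, SHR2-3 and SHR3-1 came from 1 scan, taken as 1 slide; SHR3-3 and SHR3-4 came from 2 other scans. SHR3-3 had the narrowest and SHR3-4 the widest spread of signal, with interquartile ranges of 1.56 and 2.50 log2 units against 1.80 to 2.39 on the other 8 arrays. Of 28 marker genes of the gland and of other cells, 0 were among the 38 genes named for the arrays' linear transcript probes, so the tissue label could not be checked in this way.

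The question for each circRNA was how its signal was spread over the arrays of the strains. Levels are log2 processed signal minus the 75th percentile of the array, so that 0 means a spot as bright as that percentile. ASCRPR006399 had levels of -0.60, -0.40, -0.88, -0.52 and -0.61 on WKY1-2, WKY1-3, WKY1-5, WKY4-1 and WKY4-2. Its levels were -2.72, -2.28, -2.55, -2.80 and -2.87 on SHR2-1, SHR2-3, SHR3-1, SHR3-3 and SHR3-4. The strains were far apart and neither was widely spread: the lowest WKY array lay 1.40 log2 units above the highest SHR array, the widest such gap among the 13908 circRNAs measured on all arrays. Means were -0.60 ± 0.18 in WKY and -2.65 ± 0.24 in SHR (SD, n = 5 each), so that WKY was 4.12-fold higher. Its adjusted p in limma was 0.00220, the smallest of all circRNAs.

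ASCRPR000911 had levels of 2.36, 3.06, 2.32, 2.31 and 2.85 on WKY1-2, WKY1-3, WKY1-5, WKY4-1 and WKY4-2. In SHR its levels were 0.25, 0.24, 0.54, -0.10 and 1.04 on SHR2-1, SHR2-3, SHR3-1, SHR3-3 and SHR3-4. The arrays of both strains varied, with WKY1-3 and WKY4-2 above the other WKY arrays and SHR3-4 above the other SHR arrays, yet a gap of 1.27 remained between the strains. Means were 2.58 ± 0.35 in WKY and 0.39 ± 0.43 in SHR (SD, n = 5 each), a 4.55-fold difference and the largest decrease among the tested circRNAs in these values. ASCRPR012715 had a larger decrease than it with quantile normalization (-2.27 against -2.17), with array weights (-2.31 against -2.26) and with the slide as a block (-2.24 against -2.23). The adjusted p of ASCRPR000911 in limma was 0.00371.

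ASCRPR012715 had levels of 0.70, 1.00, 0.64, 0.85 and 0.99 on WKY1-2, WKY1-3, WKY1-5, WKY4-1 and WKY4-2. Its SHR levels were -1.58, -1.49, -1.13, -2.03 and -0.44 on SHR2-1, SHR2-3, SHR3-1, SHR3-3 and SHR3-4. WKY arrays were close together, whereas SHR arrays spread over more than a log2 unit, with both extremes on the slides that held no WKY array. Means were 0.84 ± 0.16 in WKY and -1.34 ± 0.59 in SHR (SD, n = 5 each), a 4.5-fold difference, with a gap of 1.08 between the strains. Its adjusted p in limma was 0.00705.

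ASCRPR002102 had levels of 1.47, 1.68, 1.36, 1.49 and 1.57 on WKY1-2, WKY1-3, WKY1-5, WKY4-1 and WKY4-2. Its levels were 0.41, 0.28, 0.20, -0.07 and 0.58 on SHR2-1, SHR2-3, SHR3-1, SHR3-3 and SHR3-4. This was the smallest difference of the 4, with little spread in either strain. Means were 1.51 ± 0.12 in WKY and 0.28 ± 0.24 in SHR (SD, n = 5 each), a 2.35-fold difference with a gap of 0.77. Its decrease ranked 57 by size among the tested circRNAs, and its adjusted p in limma was 0.0269. Leaving out any 1 of SHR2-1, SHR2-3, SHR3-1 or the 5 WKY arrays put it above the threshold (adjusted p in limma up to 0.132), whereas without SHR3-3 or SHR3-4 it passed.

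**Figure D1:**
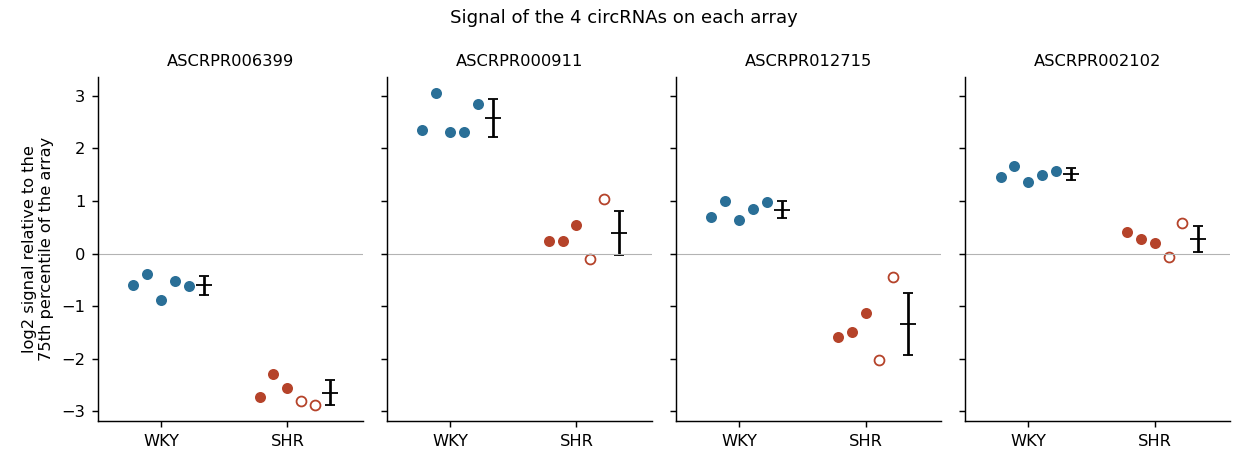
Log2 signal of each of the 4 circRNAs relative to the 75th percentile of its array, 1 point per array. Open points are SHR3-3 and SHR3-4, which were scanned apart from the other 8 arrays, and bars give the mean ± SD (n = 5). In each panel all 5 SHR points lie below all 5 WKY points, with gaps from 0.77 (ASCRPR002102) to 1.40 (ASCRPR006399).

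In these values the 4 circRNAs had the 4 widest gaps between the strains in this direction. All 5 SHR arrays lay below all 5 WKY arrays for 94 of 13908 circRNAs, or 0.676%, and the gap exceeded 1 log2 unit for 3 of these, which were ASCRPR006399, ASCRPR000911 and ASCRPR012715. Within-strain spread differed among the 4: the pooled SD was 0.21 for ASCRPR006399 and 0.19 for ASCRPR002102, and 94.4% and 96.2% of circRNAs had a larger one. It was 0.39 for ASCRPR000911 and 0.43 for ASCRPR012715, which 62.5% and 54.9% of circRNAs exceeded, where the median SD was 0.46. In these values ASCRPR006399 and ASCRPR002102 were thus among the steadiest of the circRNAs measured on all arrays. This depended on the normalization. The standard error of the difference of ASCRPR006399 was 0.19 here, 0.25 with quantile normalization and 0.36 without normalization. That of ASCRPR002102 was 0.18, 0.18 and 0.35, and that of ASCRPR000911 was 0.25, 0.27 and 0.37. A small spread also raises the chance of passing the test, so these SDs share the choice of the members.

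Just inside the threshold was ASCRPR002102. Just outside it, among circRNAs lower in SHR, was ASCRPR003932, with an adjusted p in limma of 0.0644. Its fold was larger, 4.09, with levels of 0.29 ± 0.51 for WKY and -1.74 ± 0.66 for SHR (SD, n = 5 per strain), and its strains did not overlap either. ASCRPR014049 tied with it in adjusted p in limma (0.0644), with a 3.59-fold difference and strains that did not overlap.

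**Figure D2:**
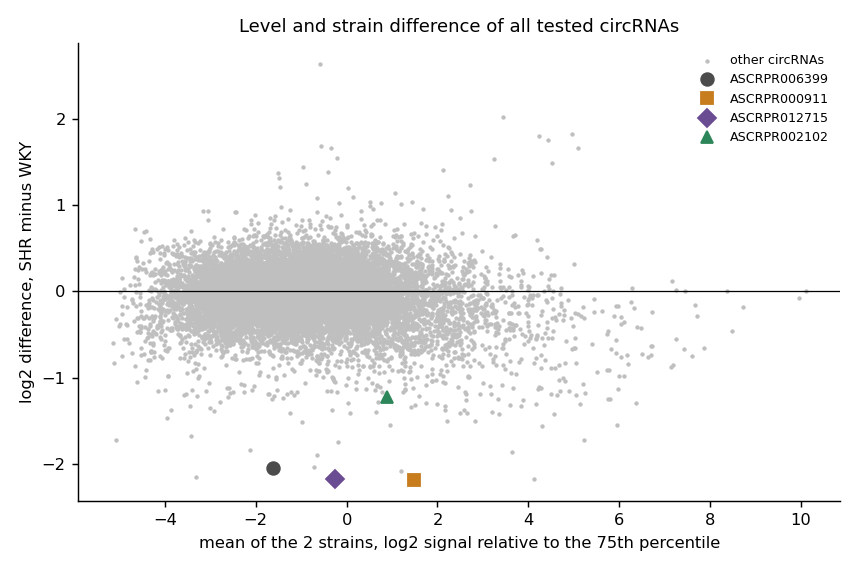
Log2 difference, SHR minus WKY, of all 14099 tested circRNAs against the mean level of the strains, with the 4 circRNAs as large symbols. ASCRPR000911, ASCRPR012715 and ASCRPR006399 lie at the lower edge of the cloud, at -2.19, -2.17 and -2.04, and ASCRPR002102 lies at -1.23 with other circRNAs around and below it.

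The second question was how bright these spots were among the circRNA probes of an array. A rank of this kind is that of a spot, since probes differ in affinity, and it does not order the RNAs by amount. ASCRPR000911 was among the brightest in WKY, where 96.4% ± 1.04 of circRNA probes were dimmer (SD, n = 5), and 80.5% ± 6.0 were dimmer than it in SHR. ASCRPR002102 was brighter than 92.1% ± 0.894 of them in WKY and 79.2% ± 3.92 in SHR (SD, n = 5 each). Both therefore stayed in the brighter part of the array in both strains.

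ASCRPR012715 was brighter than 86.6% ± 1.85 of circRNA probes in WKY and 41.3% ± 19.9 in SHR (SD, n = 5 each). Its rank was the least settled of the 4, from 13.3% on SHR3-3 to 66.8% on SHR3-4. ASCRPR006399 had the widest distance in rank, with 62.0% ± 4.12 of probes dimmer in WKY and 15.1% ± 6.80 in SHR (SD, n = 5 each), a middling spot in one strain and a dim one in the other. Mean ranks moved by less than 1 SD between arrays without background subtraction, with normexp background correction and in the authors' value table, where ASCRPR006399 was brighter than 61.0% of probes in WKY and 14.5% in SHR.

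The third question was how far each spot stood above background. All 4 were marked as well above background on all 10 arrays, and none of the 40 spots was saturated or marked as an outlier. ASCRPR006399 was the closest to background: processed signal was 20.4 to 48.0 units over the 5 SHR arrays, with a median of 30.3, and 90.9 to 220.0 over the 5 WKY arrays, with a median of 159. On SHR3-3 it was only 2.11 times the brightest negative control spot, whereas over the other SHR arrays this ratio was 5.15 to 14.3. Before any subtraction its median pixel was 2.38 to 3.71 times the local background in SHR and 5.94 to 16 times in WKY. The error that the scanning software assigns to a processed signal was 10.3% to 16.7% of it in SHR and at most 10.1% in WKY.

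The other 3 were further from background. ASCRPR012715 had 34.8 to 163 units in SHR and 275 to 571 in WKY, with median pixels 4.26 to 11 and 19.3 to 41.8 times the local background. ASCRPR002102 had 136 to 333 units in SHR and 413 to 889.7 in WKY, or 8.68 to 18.7 and 24.7 to 57.2 times the local background. ASCRPR000911 had 132 to 456 units in SHR and 890.3 to 1742 in WKY, or 8.16 to 25.9 and 53.7 to 100.4 times. On the un-normalised scale, too, no SHR array reached the lowest WKY array for any of the 4. SHR3-3 gave the dimmest spot of its strain for all of them, and the processed signal of ASCRPR012715 there was 3.61 times the brightest negative control spot.

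**Figure D3:**
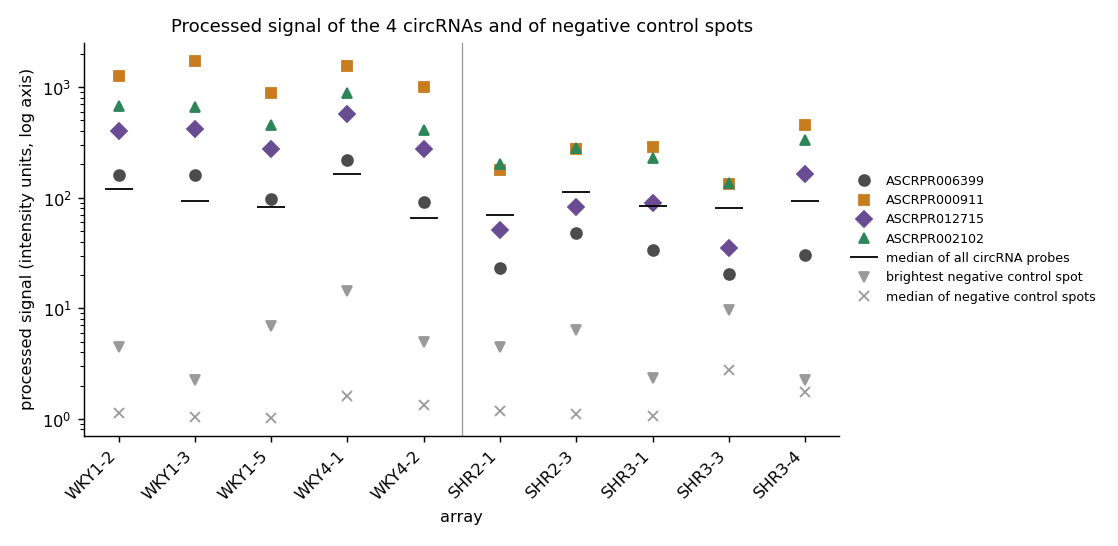
Processed signal of the 4 circRNAs on each array (log axis), with the median of all circRNA probes and the median and highest signal of 77 negative control spots. The 4 lie above every negative control spot on all 10 arrays, and the smallest distance is that of ASCRPR006399 on SHR3-3.

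The fourth question was how far the size of each difference depended on the processing. With quantile normalization it changed little, to -2.05 for ASCRPR006399, -2.17 for ASCRPR000911, -2.27 for ASCRPR012715 and -1.22 for ASCRPR002102 (log2, SHR minus WKY). Larger changes came with other settings, most of all for the spot that was dimmest in SHR. The steps behind the authors' values are not known, and normexp was combined with quantile normalization. What made the differences smaller in these settings was therefore not tested. In the authors' value table the difference of ASCRPR006399 was -0.87, or 42.6% of the value above, with 7.60 ± 0.11 for WKY and 6.73 ± 0.16 for SHR (SD, n = 5 per strain). ASCRPR012715 kept 64.7% of its difference there, at -1.40. ASCRPR002102 kept 83.1%, at -1.02, and ASCRPR000911 kept 87.9%, at -1.92.

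The order of these shares was the order of mean processed signal in SHR, which was 31.1, 84.3, 236 and 266 units. The same held with normexp background correction, with an offset of 50 and quantile normalization, where the shares were 34.4%, 56.4%, 76.7% and 82.9%. Without any background subtraction ASCRPR006399 kept 71.8%, at -1.47, and ASCRPR012715 kept 84.5%. There ASCRPR002102 and ASCRPR000911 kept 97.4% and 96.7%, so that the order did not hold for the brightest pair. Other dim probes narrowed as well. With all tested circRNAs ordered by SHR level and divided into 4 equal parts, the median size of the difference in the authors' table was 27.1% of that in the values used here in the dimmest part, 49.5% and 64.3% in the next ones and 80.9% in the brightest. ASCRPR006399 lies in the dimmest part, ASCRPR012715 in the next and the other two in the brightest.

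The strains did not overlap in the authors' table either, with gaps of 0.56, 1.11, 0.73 and 0.63 log2 units for ASCRPR006399, ASCRPR000911, ASCRPR012715 and ASCRPR002102. All 4 passed in limma on that table, where 6 of 14145 circRNAs, or 0.0424%, were called lower in SHR. Adjusted p-values in limma on the table, restricted to the probes tested above, were 0.0103 for ASCRPR006399 and ASCRPR002102 and 0.0176 for the other two. The table comes from the same arrays and is no independent measurement.

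**Figure D4:**
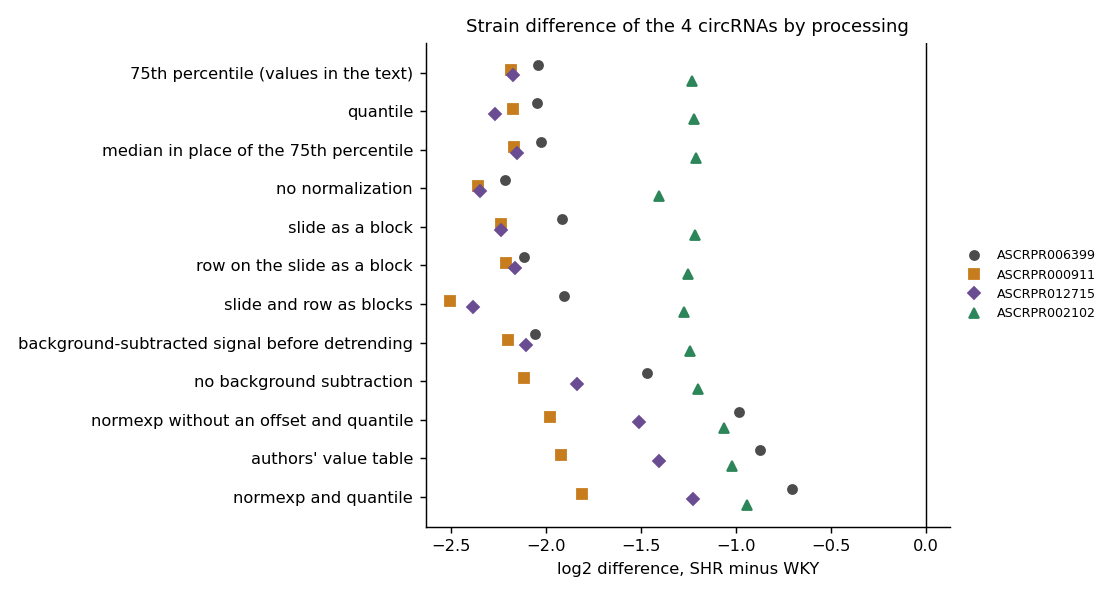
Log2 difference, SHR minus WKY, of the 4 circRNAs under each way of normalizing, blocking and correcting for background. All values are below 0. ASCRPR006399 moves most, from -2.04 with background-subtracted signal to -0.70 with normexp and an offset of 50, and ASCRPR000911 and ASCRPR002102 move least.

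Slide and strain overlapped only in part, so the differences were also taken within the slide that held both strains, 3 SHR against 5 WKY arrays. They were -1.92 for ASCRPR006399, -2.23 for ASCRPR000911, -2.24 for ASCRPR012715 and -1.21 for ASCRPR002102, between 93.8% and 103.0% of those over all arrays. The headers also hold a pair of position numbers per array, read here as row and column, although neither they nor the labels say what the numbers are. Read so, 4 WKY arrays lie in row 1 of that slide, and WKY4-2 with the 3 SHR arrays in row 2. With the row as a block ASCRPR002102 had an adjusted p in limma of 0.118, and the other 3 still passed. With slide and row together as blocks none of the 4 passed (adjusted p in limma from 0.608 to 1.00), and the 3 SHR arrays are then compared with WKY4-2 alone. The sizes were -1.90, -2.51, -2.39 and -1.27 in that fit.

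The spots next to the 4 on the array were also compared between the strains. Among 11 to 14 circRNA probes within 2 rows and 1 column of each, the median log2 difference was -0.27 around ASCRPR006399, 0.00 around ASCRPR000911, 0.01 around ASCRPR012715 and 0.05 around ASCRPR002102. The median over all tested circRNAs was -0.04. Lower in SHR were 7 of 11 neighbours of ASCRPR006399, 6 of 12 of ASCRPR000911, 6 of 13 of ASCRPR012715 and 6 of 14 of ASCRPR002102. The lowest value among all these neighbours was -0.81. In limma 0 of them passed, but only 13 of all 14099 tested circRNAs did, so this count says little about the neighbours.

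The last question was whether the 4 varied together from array to array once the strain difference was taken away. Each level was therefore centred on the mean of its strain, which leaves out the difference that chose them, and Pearson and Spearman correlations over the 10 arrays were tested by an exact permutation test (two-sided, over the 14400 rearrangements of arrays within strains, 6 pairs). ASCRPR000911 and ASCRPR012715 varied together, with r = 0.888 (exact permutation p = 0.000833, adjusted 0.00500) and rho = 0.758 (p = 0.00965, adjusted 0.0335). ASCRPR000911 and ASCRPR002102 had r = 0.815 (exact permutation p = 0.0116, adjusted 0.0348) and rho = 0.806 (p = 0.0112, adjusted 0.0335). On SHR3-3 all 3 lay below their strain mean, at -0.50, -0.69 and -0.35 for ASCRPR000911, ASCRPR012715 and ASCRPR002102, and on SHR3-4 all 3 lay above it, at 0.64, 0.89 and 0.30. Among WKY arrays, WKY1-3 and WKY4-2 lay above the mean and WKY1-2 and WKY1-5 below it for all 3.

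ASCRPR012715 and ASCRPR002102 had r = 0.807 (exact permutation p = 0.0373, adjusted 0.0746) and rho = 0.515 (p = 0.212, adjusted 0.423), so this pair did not pass. The value depended on which arrays were kept. It was 0.654 without SHR3-3 alone, 0.660 without SHR3-4 alone and 0.195 without both. Without SHR2-1 alone r was 0.923 (exact permutation p adjusted 0.0243), and the pair passed. Over the 5 WKY arrays alone, which include none of these, r was 0.928, and this was not tested. No pair with ASCRPR006399 passed on this scale, with r of 0.0703 with ASCRPR000911, -0.0383 with ASCRPR012715 and 0.129 with ASCRPR002102 (exact permutation p from 0.776 to 0.935, adjusted 0.935 for all 3; rho from 0.152 to 0.273, adjusted p 0.702 for all 3). The sign of r differed between the strains for all 3 pairs. Over the 5 WKY arrays alone r was 0.588, 0.762 and 0.881, in the same order. Over the 5 SHR arrays alone it was -0.248, -0.207 and -0.142. Without SHR3-4 the pooled r was 0.513, 0.590 and 0.561 (exact permutation p adjusted 0.183 for all 3). Among WKY arrays ASCRPR006399 was highest on WKY1-3 (0.21) and lowest on WKY1-5 (-0.27), as were ASCRPR012715 (0.17 and -0.20) and ASCRPR002102 (0.16 and -0.15), whereas on SHR3-4 it lay below its strain mean (-0.23) and the other 3 lay above theirs. With 5 arrays a strain, neither these patterns nor the difference between the strains was tested. Leaving out SHR2-3 and WKY1-5, the arrays farthest from the median of ASCRPR006399, these r were 0.0885, -0.0441 and 0.00959. Without SHR3-4 and WKY1-3, the farthest for ASCRPR000911, its r was 0.841 with ASCRPR012715 and 0.603 with ASCRPR002102.

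Over the 8 arrays of the shared slide r was 0.794 for ASCRPR000911 with ASCRPR012715, 0.587 with ASCRPR002102 and 0.215 for ASCRPR012715 with ASCRPR002102, and 0 of 6 pairs passed. Without SHR3-4 alone 0 of 6 pairs passed as well (r = 0.809, exact permutation p adjusted 0.0688, for ASCRPR000911 with ASCRPR012715). That pair passed for r without each of the other 9 arrays. For rho it passed only without SHR2-1, SHR2-3 or WKY4-1, and the adjusted exact permutation p was up to 0.142, without WKY1-3. ASCRPR000911 with ASCRPR002102 failed to pass for r without SHR2-3, SHR3-3, SHR3-4, WKY1-2, WKY1-3, WKY1-5 or WKY4-2, with r from 0.690 to 0.824 in these.

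The same values were set against the spread of signal on the array, a property of the whole profile. For ASCRPR000911, ASCRPR012715 and ASCRPR002102 r was positive but did not pass after adjustment. Strain-centred r with the interquartile range was 0.844 for ASCRPR000911 (exact permutation p = 0.00451, adjusted 0.0542; rho = 0.818, p = 0.00625, adjusted 0.0750), 0.826 for ASCRPR012715 (p = 0.0231, adjusted 0.138; rho = 0.733, p = 0.0634, adjusted 0.380) and 0.731 for ASCRPR002102 (p = 0.0550, adjusted 0.22; rho = 0.455, p = 0.256, adjusted 0.614). For ASCRPR006399 r was -0.0923 (exact permutation p = 0.838, adjusted 0.950; rho = -0.127, p = 0.749, adjusted 0.948). None of the 12 relations with the interquartile range, the 75th percentile or the local background passed after adjustment. When SHR3-3 and SHR3-4, which had the extreme ranges, were left out, r was 0.695, 0.513, 0.152 and -0.177 for ASCRPR000911, ASCRPR012715, ASCRPR002102 and ASCRPR006399. Within the shared slide it was 0.715, 0.550, 0.143 and -0.236. With the range removed along with the strain, r was 0.630 for ASCRPR000911 with ASCRPR012715, 0.542 for ASCRPR000911 with ASCRPR002102 and 0.528 for ASCRPR012715 with ASCRPR002102.

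Such relations were common on these arrays. The strain-centred r of ASCRPR000911 with all other circRNAs ran from -0.847 to 0.783 between the 5th and 95th percentiles, and that of ASCRPR006399 from -0.547 to 0.554. Of the circRNAs, 99.2% had a lower r with ASCRPR000911 than ASCRPR012715 had, and 96.8% had a lower one than ASCRPR002102 had. For ASCRPR012715 with ASCRPR002102 the share was 95.2%, and the 95th percentile of r with ASCRPR012715 was 0.803. Between 46.2% and 63.2% of circRNAs had a lower r with ASCRPR006399 than the other members had. All of these were taken without removing the interquartile range, and they are descriptions over circRNAs that share the same 10 arrays.

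In the authors' value table all 4 circRNAs varied together. Strain-centred r was between 0.763 and 0.879 for the 6 pairs, and all 6 passed for r (exact permutation p adjusted from 0.00167 to 0.0267), while for rho, from 0.527 to 0.842, 5 passed (adjusted 0.0188 to 0.0419) and ASCRPR006399 with ASCRPR002102 did not (p = 0.153, adjusted 0.153). Without the 2 farthest arrays r ran from 0.641 to 0.853, and within the shared slide from 0.552 to 0.825. Only ASCRPR000911 with ASCRPR012715 passed within that slide, at r = 0.820 (exact permutation p adjusted 0.0333). Over all 10 arrays of the authors' table the median r with all other circRNAs was 0.0360 to 0.0704, and between 91.3% and 99.8% of circRNAs had a lower r with a given member. The pairs with ASCRPR006399 therefore passed for r in that table, as they did with quantile normalization, and did not pass in the values used above.

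**Figure D5:**
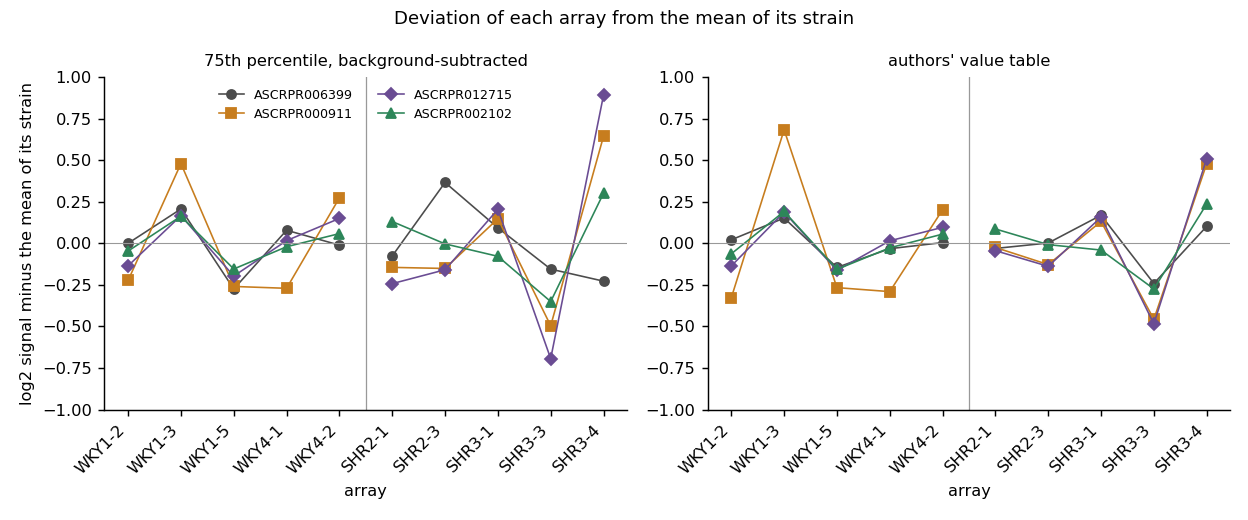
Deviation of each circRNA from the mean of its strain on each array (log2), in the values used in the text on the left and in the authors' value table on the right; lines join arrays of a strain for reading only, since arrays have no order. ASCRPR000911 and ASCRPR012715 follow each other in both panels, whereas ASCRPR006399 lies at -0.23 on SHR3-4 on the left and at 0.10 on the right.

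Over all 10 arrays, with the strain difference left in, each of the 4 was most like another of them. The Pearson r was 0.988 between ASCRPR000911 and ASCRPR012715, 0.984 between ASCRPR000911 and ASCRPR002102, 0.980 between ASCRPR012715 and ASCRPR002102, and 0.954 between ASCRPR006399 and ASCRPR002102. These r include the strain difference that chose the 4. Outside the 4, the most alike were ASCRPR003873 (r = 0.979 with ASCRPR000911 and 0.956 with ASCRPR012715), ASCRPR010362 (0.968 with ASCRPR002102 and 0.953 with ASCRPR006399) and ASCRPR009684 (0.949 with ASCRPR006399). These had smaller differences between the strains, -0.64, -0.87 and -0.58 on the log2 scale, and adjusted p-values in limma of 0.524, 0.269 and 0.726, so none of them passed. Between 19 and 27 circRNAs had an r of at least 0.9 with one of the 4.

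No array stood far from the other 4 of its strain for any of these circRNAs: 0 of 24 groups tested, over 3 ways of expressing the signal, held an outlying array by Dixon's criterion.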

How the data were processed

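Per the file headers, each deposited scanner file holds 1 array in 1 colour, as spot intensity on a linear scale, extracted with Agilent Feature Extraction 11.0.1.1 (version from the submitters' processing notes), whose processed intensity is background-subtracted and detrended. The deposited marks for background, saturation and outliers were kept. The authors' value table gives circRNA probes in log2 units. Within arrays it ranks probes as median pixel minus local background does (Spearman's rho of 1); the submitters' processing notes name limma without steps.

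Here, each array's 75th percentile over non-control probes was subtracted from log2 processed intensity, leaving out spots marked as outliers. A probe was tested when at least 5 of the 10 arrays had it well above background. The test was limma's moderated fit (version 3.58.1, R 4.3.3, two-sided). Its p-values were adjusted by Benjamini-Hochberg across every probe tested, and a probe passed under 0.05; the script was first tested on simulated data. Strain-centred correlations used exact permutations within strains. Alternatives covered normalization, background correction, filters, weights, blocks and left-out arrays. Named beside the 4 were, by rule, the 3 circRNAs most alike to each and the nearest outside the threshold, including a tie in adjusted p. The members, lists and tests were chosen with earlier results of these data known. The number of arrays limits the precision.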

Additional observations from a re-analysis of the deposited data

How the results depend on the processing

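The 4 circRNAs were lower in SHR under every alternative run, which their lack of overlap fixes for blocks and left-out arrays. The log2 difference of ASCRPR006399 became -0.70 with normexp and an offset of 50, -0.99 with normexp without an offset, -1.47 without background subtraction and -0.87 in the authors' table. That of ASCRPR012715 became -1.22, -1.51 and -1.40 with the first, second and last of these, and that of ASCRPR002102 -0.94 and -1.02 with the first and last. Leaving out each array gave -2.13 to -1.99 for ASCRPR006399, -2.35 to -2.06 for ASCRPR000911, -2.39 to -2.0 for ASCRPR012715 and -1.31 to -1.14 for ASCRPR002102.

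The count of circRNAs that passed was 13 (9 higher, 4 lower). It was 5 without normalization (0 higher, 5 lower), where the median difference of all circRNAs was -0.21 against -0.04. It was 7 with an intensity trend and robust variance and 106 with array weights (34 and 72). With the first number of the array names as a random block it was 21 (10 and 11). It was 0 when slide and row (as read from unexplained header numbers) were both blocks, in which 283 had an unadjusted p under 0.05 in limma. Leaving out 1 array gave 8 to 16. The split was 7 higher and 6 lower with quantile normalization and 3 and 6 with normexp and in the authors' table. ASCRPR002102 lost its call with the median as the reference (adjusted p in limma 0.102), without normalization (0.770), with the intensity trend and robust variance, with the row as a block (0.118), with slide and row (1.00), and without any one array except SHR3-3 or SHR3-4 (up to 0.132); its lowest value over the other alternatives was 0.000914. The other 3 lost theirs with slide and row together only, and the cause was not tested.

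The strain-centred correlations depended on the normalization. Of 6 pairs, 2 passed for r in the values used here, 6 with quantile normalization, without normalization, with normexp and in the authors' table, 0 within the shared slide, and 0 to 3 without 1 array. For rho, ASCRPR006399 with ASCRPR002102 did not pass with quantile normalization (exact permutation p adjusted 0.0517), with normexp (0.102) or in the authors' table (0.153). Without normalization ASCRPR006399 did not pass for rho with ASCRPR000911 (exact permutation p adjusted 0.0971) or ASCRPR012715 (0.0576). ASCRPR006399 with ASCRPR012715 went from -0.0383 to 0.875 with quantile normalization, 0.456 with the median, 0.695 without normalization, 0.797 with normexp, 0.817 in the authors' table and 0.416 within the shared slide; without 1 array it ran from -0.302 to 0.590, with ASCRPR000911 from -0.149 to 0.513 and with ASCRPR002102 from -0.127 to 0.561. The cause was not tested. No paired analysis was possible because the groups share no replicate numbers. Normexp without an offset and the signal before detrending were added after seeing the data.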
